A study of Homo sapiens with 3 samples.

Results

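The mRNA levels of 9 integrin subunit genes, ITGAL, ITGAM, ITGAX, ITGB2, ITGA4, ITGB1, ITGAV, ITGB3, and ITGB8, were read in THP-1 macrophages on 3 one-color oligonucleotide arrays. The genes were chosen by name as integrins of leukocytes, with earlier results of these data known. Every transcript probe carrying one of these names in the scanner files was taken. This gave 14 probes of 58201, for 9 genes of 25044. No selectin is among the 9 genes, and selectin genes are described among the related genes below. THP-1 cells derive from a human monocytic leukemia and become macrophage-like under the phorbol ester PMA. All cells received 100 ng/mL of PMA for 24 to 36 h and then fresh medium overnight, the cells of the Ctrl array included. The Ctrl array held RNA of cells with no further treatment, the IMQ array of cells given imiquimod (IMQ), which activates toll-like receptors, and the IMQ+DMD array of cells given DMD, a benzenoid compound of fungal origin, before IMQ. The labels write the third treatment as IMQ+X, which was read as DMD since DMD and IMQ are the only compounds that the series title and treatment protocol give. They give 4 h for each array and no dose of IMQ or DMD, and the general methods of the study describe a longer incubation for THP-1 cells. The cells are of 1 line, differentiated in culture.

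Integrins are receptors made of an alpha and a beta chain, which hold leukocytes to the vessel wall, to other cells, and to matrix. The β2 chain (ITGB2) pairs with αL, αM, or αX and is restricted to leukocytes, whereas α4 and αV pair with β1 and with other beta chains. On myeloid cells they serve arrest on endothelium, phagocytosis of complement-coated particles, and the release of active TGF-β from its latent complex.

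One array was made for each condition, all 3 on 1 slide, so differences between conditions are unreplicated and no p-value was computed. A level is the intensity of a probe after quantile normalization by the authors, a difference is that of 2 log2 levels, and 2-fold or more (a log2 difference of 1 or more) was counted as a change. The technical SD printed with a difference comes from 300 probes spotted 10 times on each array and covers the noise of single spots within an array only. On each array all 14 probes were well above background, and 0 of their spots were saturated or carried an outlier mark. Over all probes, 66.6% (IMQ) to 72% (Ctrl) were well above background. In a bulk sample, fewer cells of a type and less RNA per cell cannot be told apart.

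The labelled cells were checked by marker genes. The 8 monocyte and macrophage markers found on the array, of 10 listed, each passed the background limit on every array, and their summed normalized intensity was 568323, 465462, and 447497 in Ctrl, IMQ, and IMQ+DMD. Markers of other cell types also gave signal. All 5 T cell genes were well above background on each array, with sums of 1084, 980.0, and 1162 in the same order, as were all 4 B cell genes (4736, 3842, and 4571), 3 of 4 NK cell genes (8274, 9101, and 9135), all 5 megakaryocyte and platelet genes (1164, 1073, and 1005), and all 3 neutrophil genes found of 4 listed (3447, 3341, and 3594). Of 4 epithelial genes, KRT8 and KRT18 were well above background on each array, whereas EPCAM and CDH1 were not on any. The log2 levels of KRT8 were 10.62, 10.64, and 10.85 in Ctrl, IMQ, and IMQ+DMD, and those of KRT18 were 9.88, 9.58, and 9.43. The sums of the epithelial genes were 2522, 2367, and 2551. Within the NK cell list, the log2 level of NCAM1 was 5.14, 8.21, and 7.56 in Ctrl, IMQ, and IMQ+DMD, while the defining marker KLRD1 was not well above background on any array. The part of these markers in the results below was not tested.

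The probes are 60 bases long, and the first 30 bases, 5′ to 3′, are shown for the probes of the 4 genes that passed 2-fold in a comparison, so that a reader can see which stretch of each transcript was read. Positions are those of the array design (hg19). Which exon or untranslated region a probe lies in was not assigned here.
ITGB8, chr7:20455137-20455196, plus strand: agaatatggtactttcacataatatactat
ITGB3, chr17:45389027-45389086, plus strand: atgtgtggacacattggacctttcctgagg
ITGAV, chr2:187545295-187545354, plus strand: aaagagtgattaagtgaggttatttacccc
ITGAL, chr16:30533908-30533967, plus strand: tgtcagggcgtgggacatctagtaggtgct

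ITGAV, ITGB3, and ITGB8 exceeded their Ctrl level by 2-fold or more after IMQ. ITGB1, whose chain also pairs with αV, was 1.56-fold higher, under the limit. ITGB8 alone among the 9 genes was lower by 2-fold or more in IMQ+DMD than in IMQ. ITGB8 encodes the β8 chain, whose dimer with αV binds latent TGF-β and releases the active cytokine. Its normalized intensity was 109, 718, and 337 in Ctrl, IMQ, and IMQ+DMD. The IMQ array was the highest of the 3, and the IMQ+DMD array lay between the other 2. The log2 difference was 2.73 (6.61-fold, technical SD 0.18) from Ctrl to IMQ and -1.09 (2.13-fold lower, technical SD 0.08) from IMQ to IMQ+DMD. The second value lies close to the 2-fold limit and became -0.91 with spike-in scaling and -0.95 with another background correction, under the limit in both. Against Ctrl, ITGB8 was still 3.1-fold higher after IMQ+DMD (log2 difference 1.63), which is 59.9% of its log2 difference after IMQ. The intensities as the scanner gave them were 132, 649.7, and 312 in the same order.

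ITGB3 encodes the β3 chain, which pairs with αV in the vitronectin receptor. Its normalized intensity was 209, 1185, and 1300.0 in Ctrl, IMQ, and IMQ+DMD. Both treated arrays stood far above Ctrl and close to each other. IMQ differed from Ctrl by 2.51 on the log2 scale (5.68-fold, technical SD 0.11), and IMQ+DMD from IMQ by 0.13 (1.1-fold, technical SD 0.07). IMQ+DMD was 6.23-fold above Ctrl. Each of ITGB8 and ITGB3 was read from a single spot on each array, and the evenness of these spots was not extreme. The SD of the pixels of the ITGB3 spot was 18.1%, 11.9%, and 12.6% of their mean on the Ctrl, IMQ, and IMQ+DMD arrays, at percentiles 80.8, 47.9, and 62.4 of spots of like brightness, and that of the ITGB8 spot was at percentiles 12, 18, and 27.2.

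ITGAV encodes the αV chain itself, shared by the dimers with β3 and β8. Its normalized intensity was 4852, 9943, and 9676 in Ctrl, IMQ, and IMQ+DMD. The pattern was that of ITGB3, with both treated arrays alike and above Ctrl. The log2 difference was 1.04 (2.05-fold, technical SD 0.06) from Ctrl to IMQ and -0.04 (1.03-fold lower) from IMQ to IMQ+DMD. IMQ+DMD against Ctrl gave 1.99-fold, just under the limit. The call of ITGAV rests on the scaling, since IMQ against Ctrl was 0.69 without normalization between arrays and 0.56 with spike-in scaling.

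**Figure D1:**
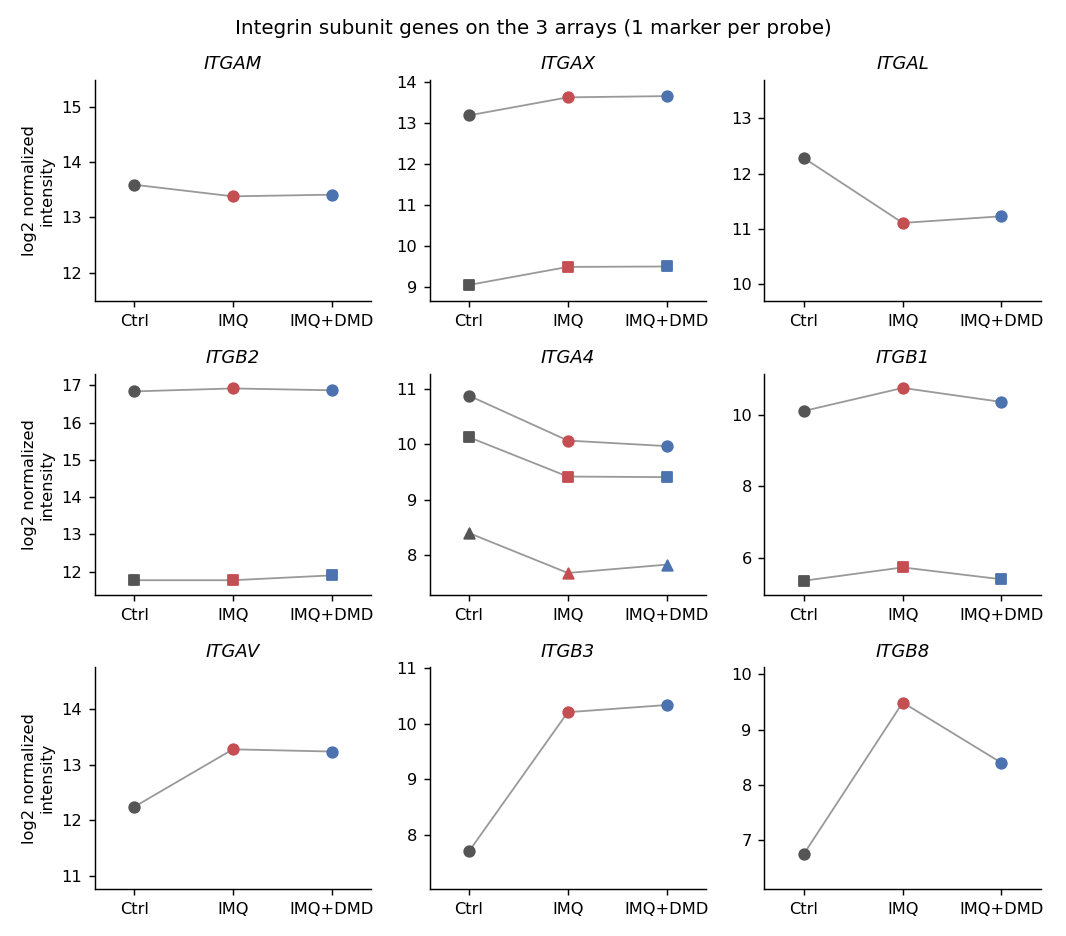
Log2 normalized intensity (y axis) of each probe of the 9 genes on the Ctrl, IMQ, and IMQ+DMD arrays (x axis), 1 panel per gene and 1 marker shape per probe, with lines joining the values of a probe. ITGB3 and ITGAV stay high on the IMQ+DMD array, ITGB8 lies between the other arrays there, and the probes of a gene run nearly in parallel.

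The ITGAV probe and 1 ITGB1 probe were spotted 10 times on each array, which shows the noise within an array directly. The 10 log2 levels of ITGAV were 12.26 ± 0.08 (SD, range 12.12 to 12.35) on the Ctrl array, 13.28 ± 0.06 (13.19 to 13.35) on the IMQ array, and 13.25 ± 0.07 (13.12 to 13.35) on the IMQ+DMD array. The spots of the Ctrl array did not overlap with those of either treated array, and the spots of the treated arrays overlapped. Spots of 1 array share its RNA and are no replicates of a condition. How often the spots of other repeated probes failed to overlap between arrays was not counted, so the separation cannot set ITGAV apart.

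**Figure D2:**
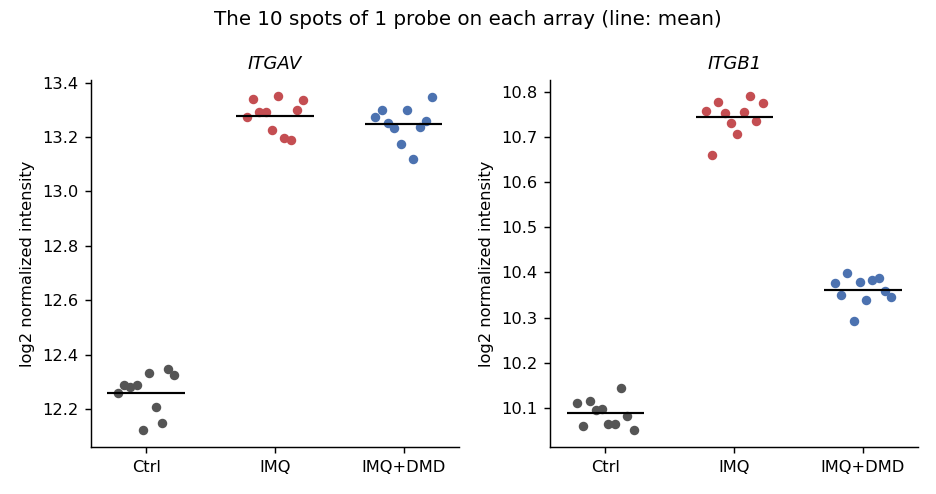
Log2 normalized intensity (y axis) of each of the 10 spots of the ITGAV probe (left) and of the ITGB1 probe (right) on the 3 arrays (x axis), with the mean as a line. The ITGAV spots of both treated arrays overlap near 13.28 and 13.25. The ITGB1 spots do not overlap between arrays, with means of 10.09, 10.74, and 10.36 on the Ctrl, IMQ, and IMQ+DMD arrays. How many other repeated probes separate in this way was not counted.

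The β2 chain was bright and nearly level on the 3 arrays, while its αL partner was lower after IMQ and its αM and αX partners stayed within 2-fold. ITGAL encodes αL, the alpha chain of LFA-1, a receptor for ICAM-1. Its normalized intensity was 4978, 2214, and 2409 in Ctrl, IMQ, and IMQ+DMD. Both treated arrays were low and close to each other. The log2 difference was -1.17 (2.25-fold lower, technical SD 0.06) from Ctrl to IMQ, 0.12 (1.09-fold higher) from IMQ to IMQ+DMD, and -1.05 (2.07-fold lower) for IMQ+DMD against Ctrl. The single ITGAL spot on each array was more uneven than most, at percentiles 94.3, 96.7, and 93.8 of spots of like brightness.

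ITGB2 encodes the beta chain shared by LFA-1 and by the dimers with αM and αX. The first of its 2 probes had normalized intensities of 117368, 124289, and 119411 in Ctrl, IMQ, and IMQ+DMD, and the second, listed under another transcript, had 3503, 3492, and 3827. Neither probe moved by as much as 1.1-fold between Ctrl and IMQ, with log2 differences of 0.08 and -0.00. From IMQ to IMQ+DMD the differences were -0.06 and 0.13, with technical SDs of 0.07 and 0.06.

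ITGAM encodes αM, the alpha chain of complement receptor Mac-1, and is widely used as a myeloid marker. Its normalized intensity was 12359.9, 10627, and 10855 in Ctrl, IMQ, and IMQ+DMD. The log2 difference was -0.22 (technical SD 0.06) from Ctrl to IMQ and 0.03 from IMQ to IMQ+DMD, both under 2-fold. ITGAX encodes αX, which is used as a marker of dendritic cells and tissue macrophages. Its first probe had 9306, 12586, and 12864 in the same order, and its second had 528, 714, and 721. Both probes gave 1.35-fold higher values after IMQ than in Ctrl, a log2 difference of 0.44, with technical SDs of 0.06 and 0.07. After IMQ+DMD they differed from IMQ by 0.03 and 0.01. With spike-in scaling the ITGAX difference between IMQ and Ctrl was -0.03.

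ITGA4 encodes the α4 chain of VLA-4, which binds VCAM-1 and fibronectin. Its 3 probes had normalized intensities of 1891, 1118, and 338 in Ctrl, 1076, 686, and 205 after IMQ, and 1000.2, 680.4, and 227 after IMQ+DMD. Ctrl was the highest array for each probe. The log2 differences between IMQ and Ctrl were -0.81, -0.70, and -0.73, with technical SDs of 0.07, 0.07, and 0.11, so that all 3 probes lay between 1.63-fold and 1.76-fold lower and none reached 2-fold. Without normalization between arrays the first probe gave -1.22. Between IMQ+DMD and IMQ the differences were -0.11, -0.01, and 0.15, of both signs.

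ITGB1 encodes the β1 chain, the partner of α4 and of many matrix-binding alpha chains. Its first probe had normalized intensities of 1101, 1713, and 1304 in Ctrl, IMQ, and IMQ+DMD. As for ITGB8, the IMQ array was the highest and the IMQ+DMD array lay between, but at smaller differences of 0.64 (1.56-fold) from Ctrl to IMQ and -0.39 (1.31-fold lower) from IMQ to IMQ+DMD, both with a technical SD of 0.07. Its 10 spots had log2 levels of 10.09 ± 0.03 (SD, range 10.05 to 10.14) on the Ctrl array, 10.74 ± 0.04 (10.66 to 10.79) on the IMQ array, and 10.36 ± 0.03 (10.29 to 10.40) on the IMQ+DMD array. No spot of 1 array overlapped with the range of another. The median SD between repeated spots was 0.05 at log2 levels from 10 to 11. Small offsets between arrays, those from scaling included, can therefore separate the spots of a probe. How many of the other repeated probes were separated in the same way was not counted, so the separation cannot set ITGB1 apart. The second probe, listed under another transcript and much dimmer, had 41.8, 53.9, and 42.7, and its differences of 0.37 and -0.34 were near its technical SD of 0.30. The order of IMQ+DMD and Ctrl depended on the scaling, with 0.24 after quantile normalization, -0.23 without normalization between arrays, and -0.21 with spike-in scaling.

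**Figure D3:**
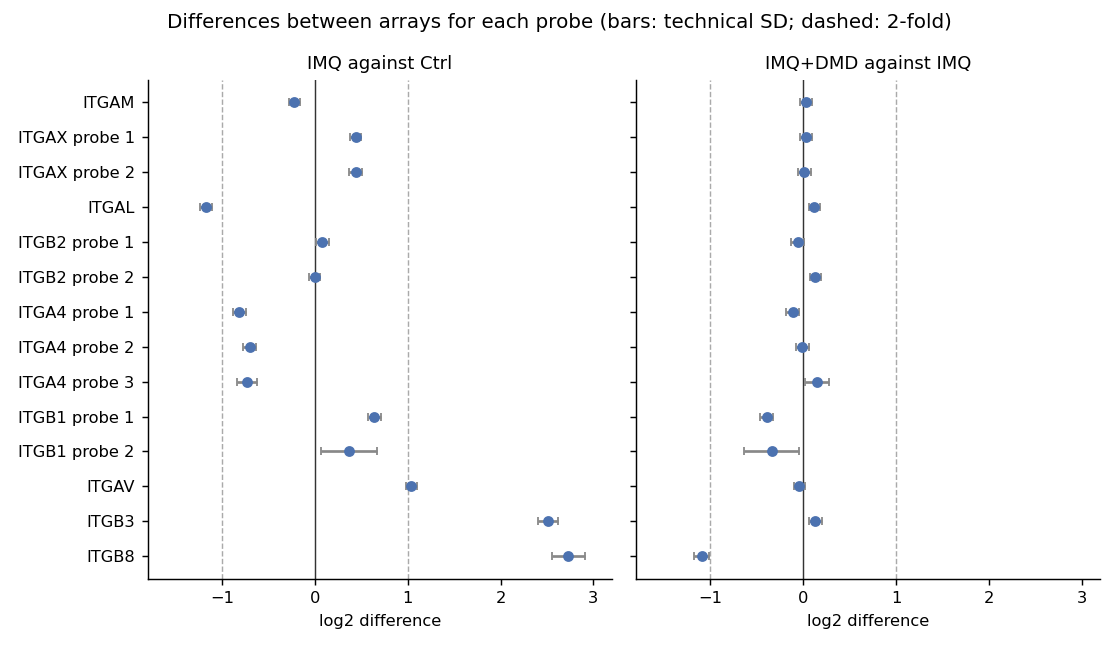
Log2 difference (x axis) of each of the 14 probes (y axis) from Ctrl to IMQ (left) and from IMQ to IMQ+DMD (right), with bars for the technical SD and dashed lines at 2-fold. ITGB8 and ITGB3 stand apart at 2.73 and 2.51 on the left, and on the right only ITGB8 passes the 2-fold line, at -1.09.

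Counted over the 9 genes, each represented by the probe whose mean log2 level was highest, 3 exceeded Ctrl by 2-fold or more after IMQ (ITGB8, ITGB3, and ITGAV), 1 was lower (ITGAL), and 5 stayed under 2-fold. Over all 20802 genes compared, 4.29% were at least 2-fold higher and 4.49% lower. The median log2 difference was 0.44 over the 9 genes and -0.03 over all genes. Between IMQ+DMD and IMQ, 0 of the 9 genes were higher by 2-fold and 1 was lower, beside 0.83% higher and 0.98% lower of 20724 genes, and the medians were -0.04 and -0.01. For IMQ+DMD against Ctrl, 2 were higher (ITGB3 and ITGB8) and 1 was lower (ITGAL), beside 3.38% and 5.97% of 21556 genes, with medians of 0.24 and 0.01. With 9 genes these are counts of a few genes, read beside the share of all genes. The 9 genes were chosen with earlier results of these data known, so that share is no unbiased comparison. The comparisons share arrays, IMQ in the first and the second and Ctrl in the first and the last, so their values are not independent of each other.

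The scaling of the arrays moved the level of all genes. Without normalization between arrays the median log2 difference of all genes was -0.49 for IMQ against Ctrl, and it was -0.62 with spike-in scaling. The 9 genes then divided into 2 higher and 2 lower in both settings, ITGAV leaving the higher and ITGA4 joining the lower genes, while all genes divided into 433 higher and 3345 lower in the first setting and 365 and 4489 in the other. With that shift included, ITGB3 and ITGB8 remained at least 2-fold higher after IMQ under each of 11 alternatives, at 1.97 to 2.54 and 2.16 to 2.75. ITGAL remained at least 2-fold lower, at -1.67 to -1.10. Each of these genes has 1 probe, well above background on all arrays. Alternatives that change only the filter, the outlier spots, the choice of probe, or the limit could therefore not move them. ITGB2 changed sign between the scalings, from 0.08 to -0.17 and -0.29.

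**Figure D4:**
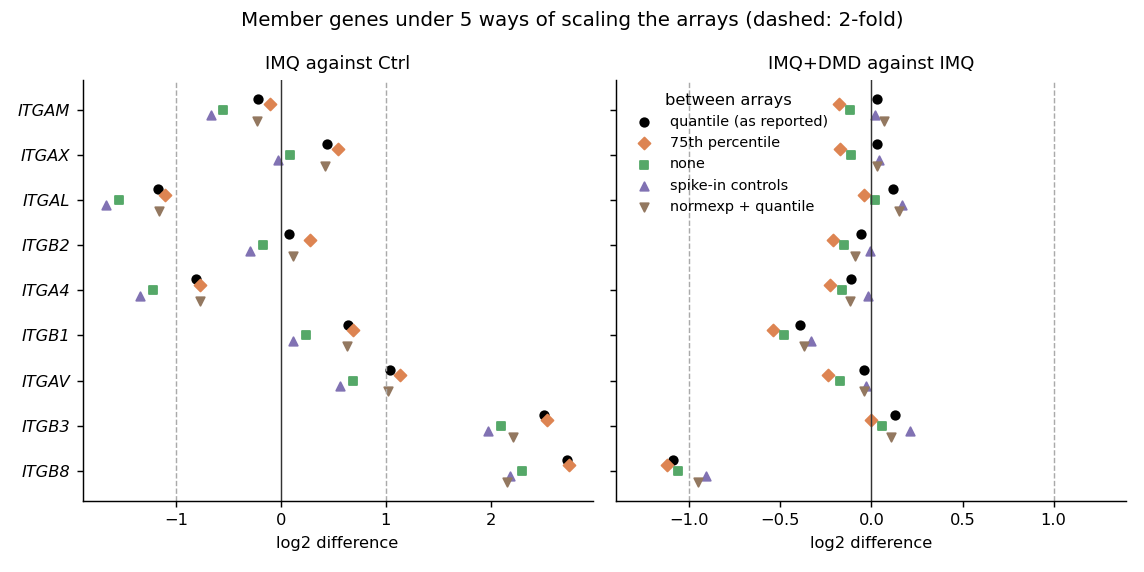
Log2 difference (x axis) of the 9 genes (y axis) from Ctrl to IMQ (left) and from IMQ to IMQ+DMD (right) under 5 ways of scaling the arrays, 1 marker shape each, with dashed lines at 2-fold. ITGB8, ITGB3, and ITGAL stay past 2-fold on the left under all 5, whereas ITGAV and ITGA4 cross the line, and ITGB8 crosses it on the right.

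Promoter sequences (RefSeq, GRCh38.p14) were at hand for 5 of the 9 genes, ITGAM, ITGA4, ITGB1, ITGAV, and ITGB8. The 250 bases before the start of the gene are shown for ITGB8 and for the first listed start of ITGAV, the genes of the αVβ8 dimer, both higher after IMQ. Capitals mark the letters GAGGAA on either strand, the core bound by PU.1 and other ETS factors of myeloid cells.
ITGB8, chr7:20330650-20330899, plus strand: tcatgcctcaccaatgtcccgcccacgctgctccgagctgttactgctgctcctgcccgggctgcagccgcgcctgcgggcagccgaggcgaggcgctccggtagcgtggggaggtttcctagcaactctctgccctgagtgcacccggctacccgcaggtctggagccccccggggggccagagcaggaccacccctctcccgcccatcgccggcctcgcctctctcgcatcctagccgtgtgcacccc
ITGAV, chr2:186589806-186590055, plus strand: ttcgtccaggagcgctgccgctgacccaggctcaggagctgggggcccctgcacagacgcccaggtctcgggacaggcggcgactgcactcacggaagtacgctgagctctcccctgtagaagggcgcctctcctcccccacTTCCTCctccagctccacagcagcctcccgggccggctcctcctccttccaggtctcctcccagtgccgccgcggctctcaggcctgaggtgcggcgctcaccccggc
Both windows are rich in G and C, at 71.2% and 70.8%. GAGGAA occurred 108 bases before the start in ITGAV and not in ITGB8. Of the 5 genes, 3 held it (ITGAM, ITGAV, and ITGB1), as did 23.6% of 35116 promoters. The letters TGANTCA of AP-1, GGG, any pair of bases, and TTTCC of a kappaB site, and TGACGTCA of a cyclic AMP response element, searched on both strands, occurred in 0 of the 5, and in 6.57%, 1.73%, and 1.65% of all promoters. TATAAA occurred in 1 (ITGB1, at its second listed start) and in 10.7% of all promoters. A match is a run of letters and not a measured site.

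Among 17 other integrin subunit genes, 16 could be compared between IMQ and Ctrl. At least 2-fold higher were 2 and lower 0, beside 4.29% and 4.49% of all genes, with a median log2 difference of -0.05. The higher ones were ITGA1, a collagen-binding alpha chain, at log2 levels of 6.72, 8.37, and 7.97 in Ctrl, IMQ, and IMQ+DMD (log2 difference 1.65), and ITGA6, a laminin-binding alpha chain, at 10.41, 11.43, and 10.85 (1.02, with 0.48 for its other probe). Both pair with β1. With spike-in scaling 1 was higher and 3 were lower. From IMQ to IMQ+DMD, 0 of 16 passed 2-fold in either direction (median -0.08), beside 0.83% higher and 0.98% lower of all genes. ITGA2 was well above background on the IMQ array alone, so its differences are bounds. It was at least 1.91-fold higher in IMQ than in Ctrl and at least 1.86-fold lower in IMQ+DMD than in IMQ. Whether it passed 2-fold cannot be told. With no filter and no floor, 3 genes of the list were higher in IMQ than in Ctrl. ITGB6, another TGF-β releasing partner of αV, was not well above background on any array. ITGB5, also a partner of αV, had log2 levels of 14.04, 13.50, and 13.48 in Ctrl, IMQ, and IMQ+DMD. Its difference between IMQ and Ctrl was -0.55, under 2-fold and opposite in sign to that of ITGAV.

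Selectins let leukocytes roll on endothelium. The endothelial selectin SELE was not well above background on any array. SELP, of platelets and endothelium, had log2 levels of 4.62, 5.10, and 5.13 on the Ctrl, IMQ, and IMQ+DMD arrays, close to the background. SELPLG, the selectin ligand of leukocytes, had 9.15, 9.14, and 9.38, and its other probe differed by -0.48 between IMQ and Ctrl. Neither of the 2 genes that could be compared passed 2-fold in any comparison, and their median of 0.24 between IMQ and Ctrl was -0.43 with spike-in scaling.

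Of 23 integrin ligands and related surface genes listed, 22 were found and 18 could be compared between IMQ and Ctrl. After IMQ 6 were at least 2-fold higher and 0 lower, beside 4.29% and 4.49% of all genes, with a median of 0.05. LRRC32, which holds latent TGF-β at the cell surface, had log2 levels of 5.12, 8.47, and 7.99 in Ctrl, IMQ, and IMQ+DMD, a difference of 3.35 for IMQ against Ctrl. ICAM1, the ligand of LFA-1 and Mac-1, had 11.73, 13.90, and 13.77 (2.17). The others were THBS1, which encodes thrombospondin (1.57, and 1.23 for its other probe), ICAM5 (1.29), ICAM4 (1.02), and the fibrinogen gene FGG, well above background on the IMQ array alone and at least 2.13-fold higher there. FGG could be compared only through that array, and 5 genes were higher where both arrays had to be well above background and 4 with another background correction (normexp). Spike-in scaling gave 3 higher and 2 lower ligand genes and a median of -0.53. With DMD before IMQ, 0 were higher than in IMQ and 1 was lower, beside 0.83% and 0.98% of all genes, with a median of -0.13. The lower gene was FGG, at least 2.07-fold. This call was lost under 5 of the 11 alternatives, the 75th percentile, no normalization, spike-in scaling, normexp, and the requirement of signal on both arrays. Against Ctrl, 4 of 17 were at least 2-fold higher after IMQ+DMD, beside 3.38% of all genes, namely LRRC32 (2.88), ICAM1 (2.04), ICAM5 (1.18), and THBS1 (1.02). VCAM1, the ligand of VLA-4, was not well above background on any array, and TGFB1 had log2 levels of 12.57, 12.21, and 12.27.

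Of 42 listed names of integrin activation and adhesion adaptor genes, 41 were found and compared between IMQ and Ctrl. At least 2-fold higher were 2 and lower 5, beside 4.29% and 4.49% of all genes, with a median of -0.17. The higher ones encode the kinases SRC (log2 difference 1.72) and LYN (1.08), which signal downstream of integrins. FYB, the adaptor ADAP, had log2 levels of 10.80, 8.04, and 8.15 in Ctrl, IMQ, and IMQ+DMD, a difference of -2.76. RASGRP2, an activator of RAP1, differed by -2.09, but its 3 other probes gave -1.08 to 0.07. APBB1IP, which links RAP1 to talin, differed by -1.20 (other probe -1.11), PARVG by -1.10 (other probe -0.70), and VCL, which encodes vinculin, by -1.01. Spike-in scaling gave 1 higher and 10 lower, with a median of -0.64. Between IMQ and IMQ+DMD, 0 of 41 passed 2-fold in either direction, beside 0.83% higher and 0.98% lower of all genes, with a median of -0.05. Against Ctrl, 1 was at least 2-fold higher after IMQ+DMD, SRC (1.87), and 4 were lower, FYB (-2.64), RASGRP2 (-2.30), APBB1IP (-1.69), and VCL (-1.21). The shares of all genes were 3.38% higher and 5.97% lower, and the median of the list was -0.21.

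**Figure D5:**
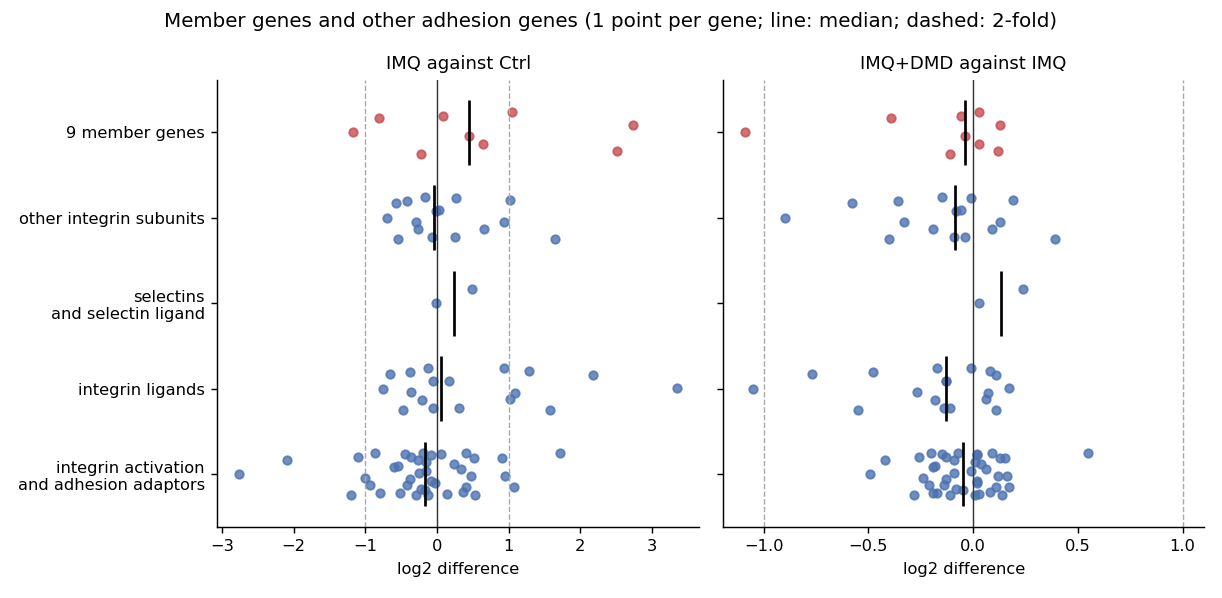
Log2 difference (x axis) of the 9 integrin genes (red) and of 4 lists of related genes (blue), 1 point per gene with the median as a line and dashed lines at 2-fold, from Ctrl to IMQ (left) and from IMQ to IMQ+DMD (right, on a narrower scale). The 9 genes have medians of 0.44 and -0.04, and only 2 points, ITGB8 and FGG, lie past 2-fold on the right.

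The genes whose levels ran most like those of ITGB8 and ITGAL, the genes of the 9 that differed most upward and downward between IMQ and Ctrl, were sought among 19747 genes by the distance between log2 levels centred on the mean of the 3 arrays. Nearest to ITGB8 were DDIT4 (distance 0.1), SLC16A10 (0.19), PTGS2 (0.2), JHDM1D-AS1 (0.23), and PVRL3 (0.24). PTGS2, which encodes the inducible cyclooxygenase, had log2 levels of 5.83, 8.73, and 7.35 in Ctrl, IMQ, and IMQ+DMD. Nearest to ITGAL were IDH2 (0.011), XRCC6BP1 (0.012), C4orf46 (0.014), LOC554223 (0.021), and LOC101929723 (0.022). With 3 arrays this likeness is a description only.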

How the data were processed

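Total RNA was labeled with Cy3 and hybridized to 1 array per condition. Per the file headers, the authors read the arrays with Feature Extraction 10.5.1.1, and they deposited for each probe a background-corrected intensity and a quantile-normalized intensity. The normalized intensity was used here as deposited. The deposited raw intensity equaled the scanner output within 0.1% for all 57901 single-spot probes. Enrichment results were not used.

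From these values log2 differences between single arrays were computed in Python 3.11.15 with numpy 2.4.6 and pandas 2.3.3. A probe not well above background took the array's floor, the lowest value among probes that were, unless its own value was higher (log2 4.04, 4.57, and 4.08 on the Ctrl, IMQ, and IMQ+DMD arrays), and was compared only where the brighter array was well above background. A difference from such a value is a bound. A gene was read from the probe with the highest mean log2 level. The technical SD of a difference combined the median SD between repeated spots at the brightness of both arrays. It is that of single spots also for the ITGAV probe and the first ITGB1 probe, which have 10 spots on each array. Evenness was compared among spots within 1.5-fold in brightness. The scripts were tested on simulated data.

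The alternatives used limma 3.58.1 in R 4.3.3 where normalization was repeated. Figures were drawn with matplotlib 3.10.9. All 9 genes were named, together with up to 6 genes per related list and comparison, by size among those that passed 2-fold, and selectin genes, of which 1 is not reported here; NCAM1, KLRD1, EPCAM, CDH1, ITGB6, VCAM1, and TGFB1 were added after their values were seen. The 9 genes and the lists were chosen with earlier results of these data known. Of the listed names, LRRC33 and RIAM were not found on the array, RIAM being another name of APBB1IP. The number of arrays limits the precision.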

Additional observations from a re-analysis of the deposited data

How the results depend on the processing

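Each result was recomputed under 11 alternatives. For IMQ against Ctrl, the number of the 9 genes at least 2-fold lower rose from 1 to 2 without normalization between arrays, with scaling to 10 spike-in probes, and at a limit of 1.5-fold, and the median of 0.44 became 0.54 with scaling to the 75th percentile, 0.09 without normalization, and -0.03 when scaled to spike-in probes. Between IMQ+DMD and IMQ, the number lower went from 1 to 0 with spike-in scaling and with normexp background correction (offset 50), and the median of -0.04 became -0.21 with the 75th percentile and -0.15 without normalization. For IMQ+DMD against Ctrl, the number lower went from 1 to 2 with the 75th percentile, without normalization, with spike-in scaling, and at 1.5-fold, and the median of 0.24 became 0.15, -0.23, and -0.21 in the first 3 of these and 0.14 with the mean of all probes of a gene. The cause was not tested. The number of all genes at least 2-fold higher and lower between IMQ and Ctrl, 893 and 935, became 433 and 3345 when arrays were not normalized to each other and 365 and 4489 with spike-in scaling, and between IMQ+DMD and IMQ 172 and 203 became 990 and 62 with spike-in scaling and 11 and 20 with normexp. Of 297 values for single genes, 222 moved by less than the technical SD, 75 moved by more, and 0 reversed a 2-fold difference. The 222 include values that could not move. The filter, the outlier spots, and the limit left all 9 genes as they were, and the choice of probe left those with 1 probe. No paired analysis was possible because each condition has 1 array and the conditions share only replicate number 1. For the same reason no array could be left out, and all arrays were on 1 slide.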
